A study of Mus musculus with 24 samples.

Results

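Transcripts of 43 genes of translation factors, the proteins that load ribosomes on mRNAs, move them along and release the finished chain, were followed in mouse embryos and yolk sacs without Cmtr2. The genes were taken by symbol from a given list, with each symbol matched to an Ensembl ID, and all 43 were present among the 54532 gene IDs of each of 3 tables. They fall into 8 groups by role: 9 genes of the cap-binding eIF4 group, 4 of the eIF1 group that scans for the start codon, 2 of eIF2, 5 of its exchange factor eIF2B, 12 of eIF3, 4 of eIF5 and eIF6, 4 of the elongation factor eEF1, and 3 of termination and poly(A) binding. All 43 passed the filter on low values in every table, so each count below is over all members.

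The study sequenced RNA of constitutive Cmtr2 knockout (KO) mice and of wild-type (WT) littermates, with 4 KO and 4 WT libraries in each of 3 tables: whole embryos of embryonic day 8.5 (E8.5), whole E9.5 embryos, and the yolk sacs of E9.5. The series describes KO embryos as alike in form to littermates at E8.5 and as smaller 1 day later. What is compared is KO against WT expression in each table. The E8.5 libraries came from 2 litters and those of E9.5 from 4, with no statement of which library belongs to which litter. Strain, the part of Cmtr2 that the allele removes and any pooling of embryos are likewise not stated, so that a p-value reflects only how far these libraries vary. RNA of a whole embryo or sac pools many cell types, and fewer cells of a type cannot be told apart from less RNA per cell.

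Cmtr2 is a methyltransferase that acts on the second transcribed nucleotide of an mRNA, next to the cap at the 5′ end. The cap is read by the eIF4F complex, in which eIF4E binds the cap, eIF4G is the scaffold and eIF4A unwinds the leader. eIF3 then brings the small ribosomal subunit, eIF1, eIF1A, eIF2 and eIF5 find the start codon, and eIF2B recharges eIF2 with GTP. The eEF1 complex delivers aminoacyl-tRNAs during elongation, eRF1 and eRF3 release the chain, and many of these mRNAs belong to the most abundant of a growing cell.

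The targeted gene was low in every KO library: Cmtr2 (ENSMUSG00000046441) stood at 11.4 percent of its WT level at E8.5, 15.4 percent in E9.5 embryos and 5.52 percent in yolk sacs, each with an exact two-sided permutation p of 0.0286, the smallest that 4 against 4 libraries allow. Libraries held 15555420 to 23376195 assigned fragments. In 24 of 24 libraries the genotype tag contradicts the title; the Cmtr2 level went with the titles, which were used. Some libraries stood apart. In E9.5 embryos the summed level of 10 cardiomyocyte markers was 16.1 and 19.7 in WT replicates 1 and 3. It was 139.8 to 818 in the other libraries. There the tail gene T was at 0.511, 1.23 and 0.991 in WT replicates 1 and 3 and KO replicate 2. Elsewhere T was at 8.87 to 18.6. Summed over 10 tailbud markers, T included, WT replicate 1 had 28.7, WT replicate 3 had 86.7 and KO replicate 2 had 84.4. The other libraries had 95.5 to 196, with WT replicate 2 lowest of them at 95.5. In this sum WT replicate 3 and KO replicate 2 thus lay close to WT replicate 2. Summed levels of 8 decidua and 10 trophoblast markers were 444 and 470.3 in yolk sac KO replicate 2; the trophoblast sum was 188 in yolk sac KO replicate 1 and 42.8 to 57.3 in the other sacs, and the decidua sum 30.5 to 51.7 outside KO replicate 2. In E8.5 KO replicates 1 to 4, 10 erythroid markers summed to 189.6, 1093, 3015 and 6823, beside 2885 to 3889 in WT. Yolk sacs had 8427 to 13414 for 10 visceral endoderm markers and at most 15.03 for cardiomyocyte markers, with Myl2 listed at 0 throughout. The visceral endoderm sum was also high at E8.5, at 1613 to 4445 in WT and 3227 to 6850 in KO libraries. In E9.5 embryos it was 2.26 to 344 in WT and 48.4 to 542 in KO. The part of this tissue in the members' values was not tested. Values without the libraries that stood apart are given beside the results.

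In the 4 WT libraries of E9.5 embryos genes of elongation factors took the first 3 places by level per length. Eef1a1, the main carrier of aminoacyl-tRNA, was highest at 3669 ± 307 FPKM (mean ± SD, n = 4), followed by Eif5a, a hypusine-bearing elongation factor, at 717 ± 83.6 and Eef1g at 532 ± 79.1. Values are listed below in the order of replicates 1 to 4. The same 3 genes led in the same order in E8.5 embryos and in yolk sacs, although Eif5a and Eef1g at E8.5 differed by less than their spread. Lowest in E9.5 embryos were Eif4e3 at 4.40 ± 0.459, Eif2b3 at 6.07 ± 0.432 and Eef1e1 at 15.4 ± 2.38. FPKM here is the authors' value (fragments relative to gene length and library size) after median-of-ratios scaling within its table. Because the tables were normalized separately, and the E8.5 table divided by another gene length than the E9.5 tables, levels were tested only within a table.

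In E9.5 KO embryos 10 of the 43 members rose and 0 fell (limma, Benjamini-Hochberg adjusted p under 0.05 over 12027 genes), where 13.6 percent of all genes tested were called, 7.35 percent as higher and 6.26 percent as lower. The log2 fold change was above 0 for 27 of the 43, against 50.7 percent of all genes. The risen members were Eif3i, Eif6, Eif3k, Eef1g, Eif2b5, Eif5a, Eef1d, Eif2b4, Eif3g and Eif1b, with log2 fold changes of 0.49 to 0.92. They came from 5 of the 8 groups: 3 of 12 in eIF3, 2 of 5 in eIF2B, 2 of 4 in eIF5 and eIF6, 2 of 4 in eEF1 and 1 of 4 in the eIF1 group. None of the 9 genes of the eIF4 group, of the 2 of eIF2 or of the 3 of termination and poly(A) binding was called by limma; at an unadjusted p under 0.05 these groups had 2, 0 and 0 members, against 35.6 percent of all genes, and voom on fragments recovered from the FPKM called Eif4h alone among them. Over all 43 members voom called 12 higher and 1 lower in E9.5 embryos. In E8.5 embryos and in yolk sacs 0 of 43 members were called by limma or by voom. The median log2 fold change over the members was 0.01 at E8.5, 0.20 in E9.5 embryos and -0.03 in yolk sacs, beside 0.01 for all genes in each table.

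The E9.5 embryo count depended on the libraries and on the scaling. It was 21 members (13 higher, 8 lower) without WT replicate 1 and 12 (12 higher, 0 lower) without KO replicate 1, 1 without WT replicate 4, and 0 without WT replicate 2 or 3 or without KO replicate 2, 3 or 4. Without WT replicates 1 and 3 and KO replicate 2, the libraries low in T, it was 0 of 43 with 35 of 11806 genes called, and the members' median was 0.29. Rescaling to TPM put the median of all genes at -0.34, from 0.01, and turned the split to 0 higher and 12 lower, with the members' median at -0.15, so that the members still lay above the median of all genes. The 10 risen members were then between 0.13 and 0.56 and not called. Quantile normalization gave 3 higher and 4 lower. Markers of tissue around the embryo moved with genotype in this table: 10 trophoblast markers summed to at most 47.0 in WT and to 43.1 to 114 in KO, and 8 decidua markers to 10.7 to 38.9 in WT and 27.4 to 117 in KO. Of these lists 1 of 4 and 1 of 5 genes tested were called, and the trophoblast gene Ctsq was at 0 throughout. The 10 erythroid markers, 2 of them called, summed to 5821 to 10610 in WT. In KO replicates 1 to 4 they summed to 1985, 4134, 1211 and 12647.5. The part of these 3 marker lists in the members' values was not tested.

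**Figure D1:**
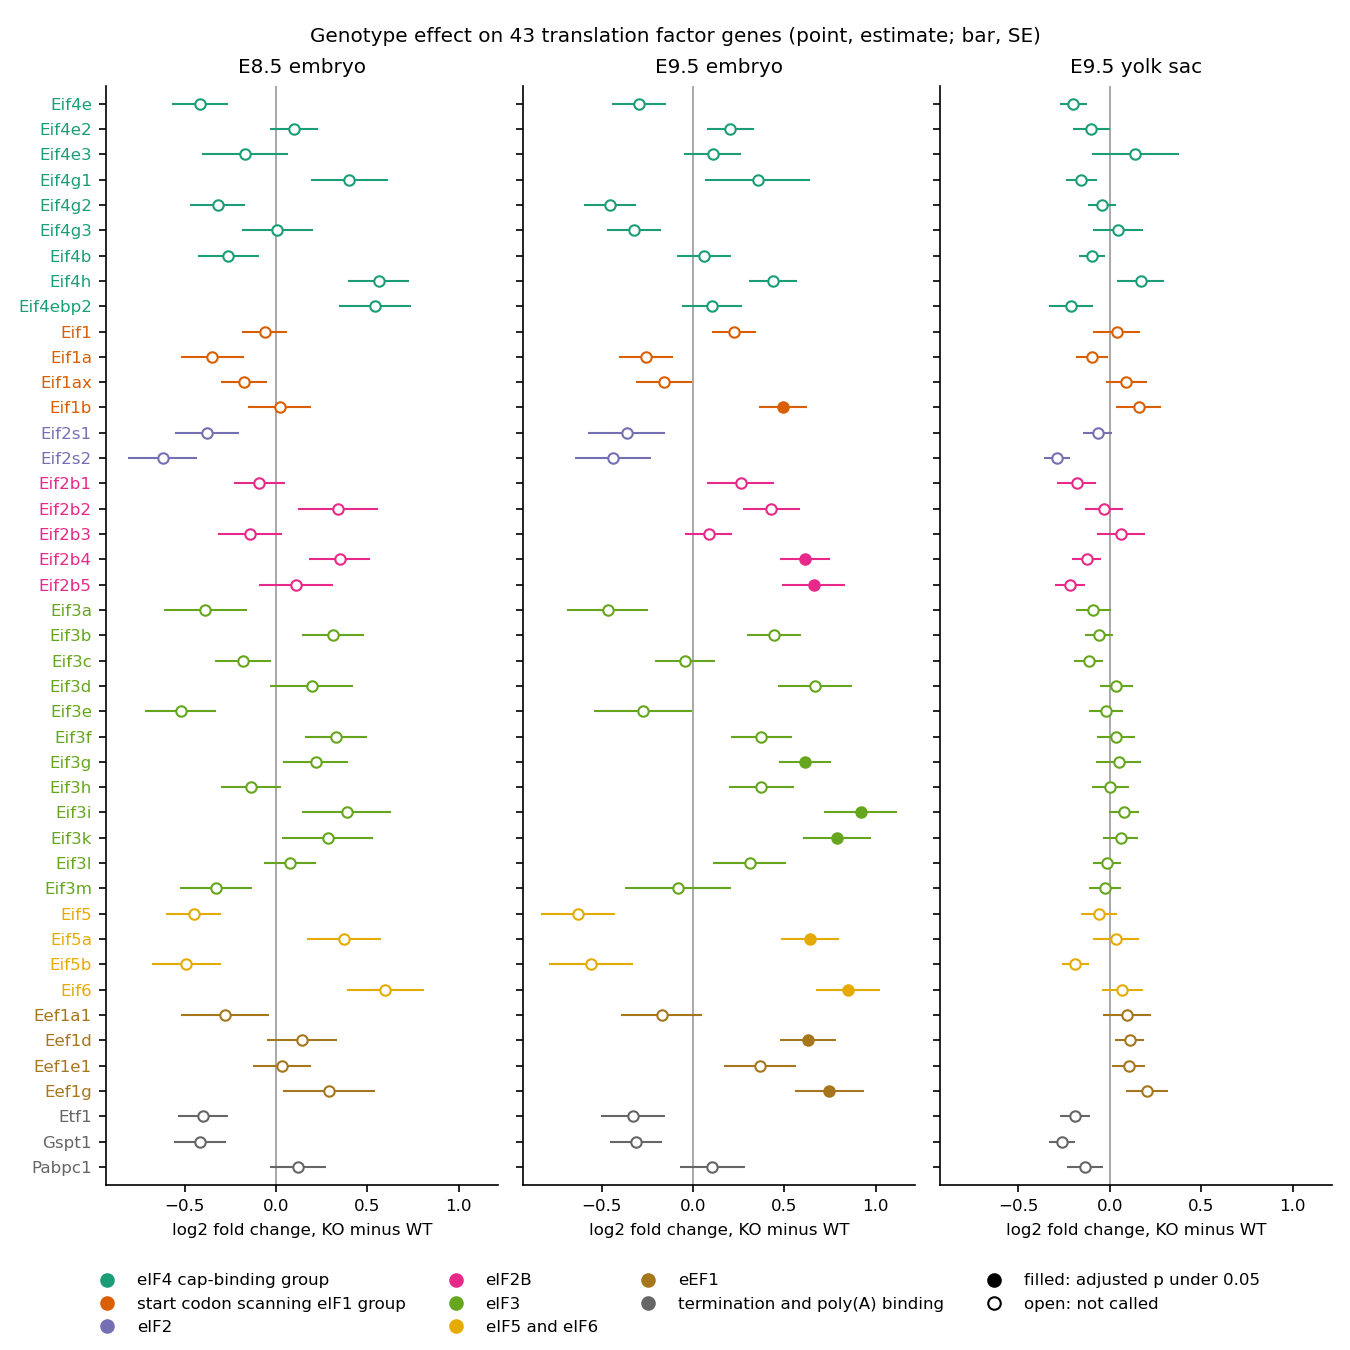
Genotype effect on the 43 members in 3 panels, 1 per table; the x axis is the log2 fold change (KO minus WT), points are limma estimates, bars are SE, colours mark the groups and filled points the members with an adjusted p under 0.05. The 10 filled points are in the E9.5 embryo panel and all lie above 0, by 0.49 to 0.92, while rescaling to TPM leaves none of them called; yolk sac effects stay between -0.29 and 0.20.

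In the eIF4 group of E9.5 embryos values lay on both sides of 0 and none was called, with 6 of 9 log2 fold changes above 0 and a median of 0.10. Eif4e, the cap-binding protein (ENSMUSG00000028156, GRCm38 chromosome 3, 138526179 to 138559696, plus strand), stood at 26.3, 39.0, 35.6 and 33.0 in WT and 27.6, 23.7, 27.8 and 29.1 in KO. Except for WT replicate 1, every WT library was above every KO library (log2 fold change -0.29, SE 0.15, adjusted p = 0.175). Eif4e2, a homologue that competes for caps, stood at 21.2, 17.9, 19.2 and 18.8 in WT and 19.5, 21.0, 25.8 and 23.0 in KO, with overlapping groups (log2 fold change 0.20, SE 0.13, adjusted p = 0.279). Eif4e3, the least abundant of this family, stood at 3.85, 4.93, 4.24 and 4.58 in WT and 4.91, 3.75, 5.84 and 4.76 in KO, also with overlap (log2 fold change 0.11, SE 0.16, adjusted p = 0.652). Within the summed level of the 3 genes, Eif4e made up 58.3 ± 5.1 percent in WT and 49.9 ± 2.8 percent in KO embryos (SD, n = 4), and the ranges, 51.3 to 63.1 and 46.7 to 53.1, overlapped.

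Of the scaffold genes in E9.5 embryos, Eif4g1 stood at 218, 100.4, 116 and 119 in WT and 244, 206, 136 and 118 in KO, so WT replicate 1 lay with the high KO libraries and KO replicates 3 and 4 lay with the other WT libraries (log2 fold change 0.35, SE 0.29, adjusted p = 0.396). Eif4g2 (ENSMUSG00000005610, GRCm38 chromosome 7, 111067750 to 111083030, minus strand), a relative that lacks the eIF4E-binding region, stood at 137, 189.7, 169 and 184 in WT and 128, 124, 108 and 134 in KO. Every KO library was below every WT library, the only member with that order in this table, beside 10.9 percent of all genes (log2 fold change -0.45, SE 0.14, adjusted p = 0.0593). Eif4g3 stood at 17.2, 19.5, 21.2 and 18.4 in WT and 19.3, 13.9, 14.9 and 13.1 in KO; KO replicates 2 to 4 lay below all WT libraries and KO replicate 1 among them (log2 fold change -0.32, SE 0.15, adjusted p = 0.148). As a share of the 3 scaffold genes, Eif4g2 was 52.7 ± 10.8 percent in WT and 40.2 ± 7.8 percent in KO, and Eif4g1 41.4 ± 11.6 and 54.8 ± 8.0 percent (SD, n = 4).

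The helpers of the helicase eIF4A differed from each other. Eif4h (ENSMUSG00000040731, GRCm38 chromosome 5, 134619721 to 134639490, minus strand) stood at 117, 104, 107 and 115 in WT and 145, 180.1, 143 and 137 in KO. Its groups did not overlap and KO was higher (log2 fold change 0.44, SE 0.13, adjusted p = 0.0523), while its log2 fold change was 0.08 (adjusted p = 0.821) after rescaling to TPM. Eif4b stood at 170.1, 154, 149.9 and 179 in WT and 163, 138, 192 and 193 in KO and overlapped throughout (log2 fold change 0.06, SE 0.15, adjusted p = 0.79). Eif4ebp2, which binds eIF4E and keeps it from the scaffold, stood at 81.5, 56.1, 83.0 and 66.0 in WT and 82.1, 80.6, 80.4 and 63.1 in KO, also with overlap (log2 fold change 0.10, SE 0.16, adjusted p = 0.672).

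**Figure D2:**
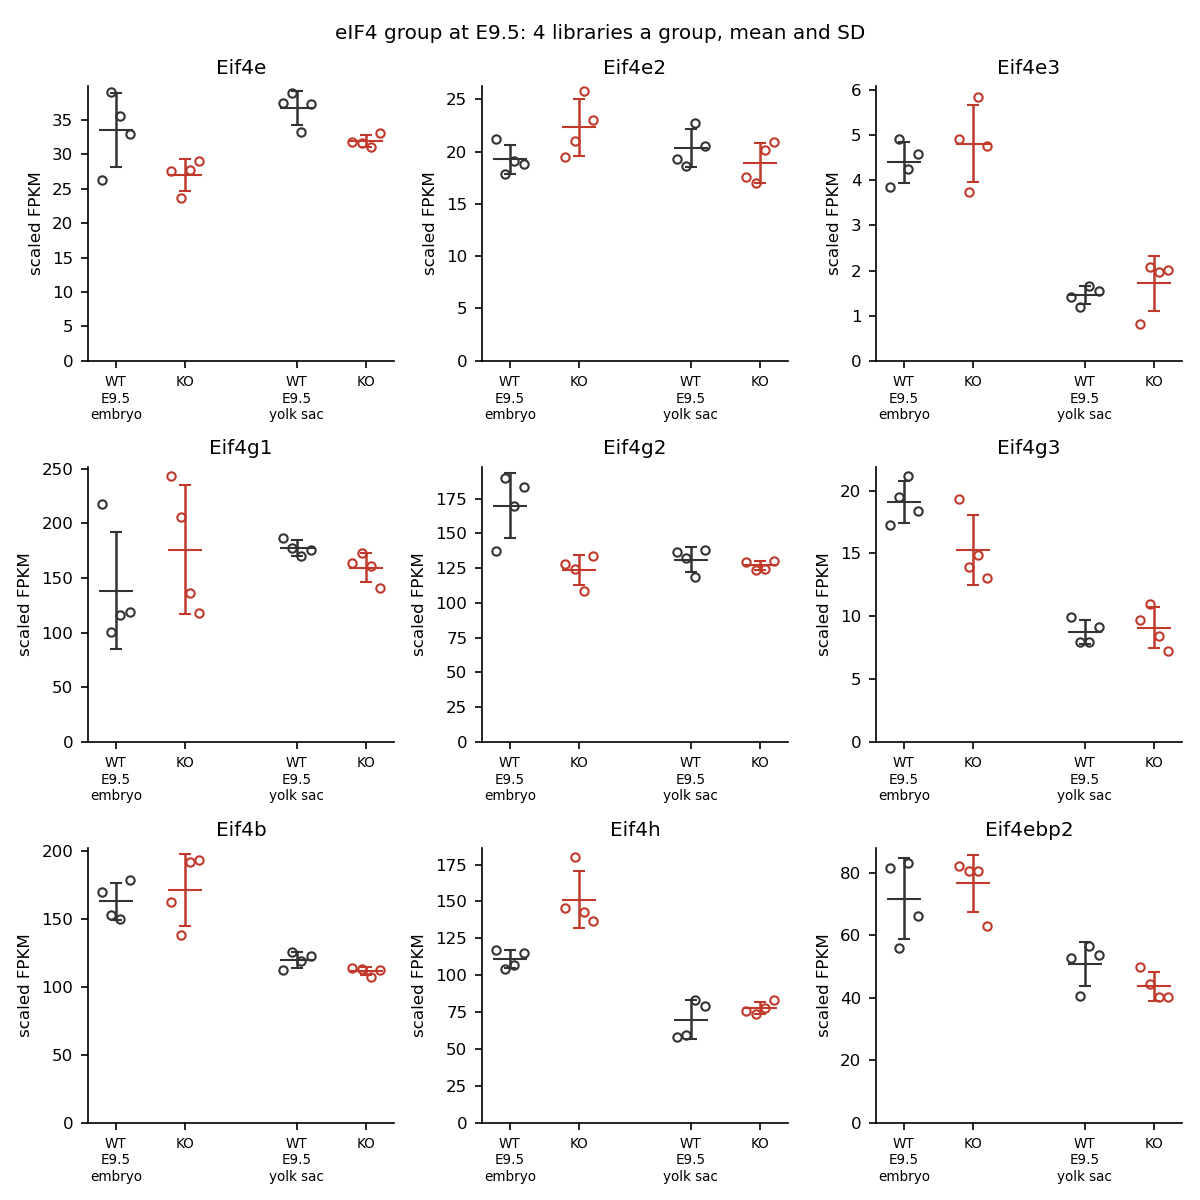
Levels of the 9 eIF4 group genes at E9.5, embryo and yolk sac (y axis, scaled FPKM, each table scaled by itself; circles, libraries; dash and bar, mean ± SD, n = 4; black, WT; red, KO). Embryo groups separate for Eif4g2 (KO lower) and Eif4h (KO higher), although neither was called, and the yolk sac groups separate for Eif4e (KO lower).

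Members of the other groups carried the E9.5 embryo calls. The largest was Eif3i, a WD-repeat subunit of eIF3 (ENSMUSG00000028798, GRCm38 chromosome 4, 129591960 to 129600648, minus strand), which stood at 90.8, 64.1, 64.7 and 73.2 in WT and 97.6, 136, 184 and 146 in KO. Every KO library was above every WT library, with KO replicate 1 close to WT replicate 1 (log2 fold change 0.92, SE 0.20, adjusted p = 0.026). Eif3k, a subunit at the edge of the complex (ENSMUSG00000053565, GRCm38 chromosome 7, 28971372 to 28981864, minus strand), stood at 87.8, 70.0, 69.5 and 79.4 in WT and 90.5, 146, 157 and 147 in KO. Here KO replicate 1 lay just above the highest WT library and the other KO libraries formed a separate cluster (log2 fold change 0.79, SE 0.19, adjusted p = 0.03). Eif3g, an RNA-binding subunit (ENSMUSG00000070319, GRCm38 chromosome 9, 20894349 to 20898623, minus strand), stood at 107, 90.7, 103 and 98.6 in WT and 123, 156, 168 and 169 in KO, again without overlap (log2 fold change 0.61, SE 0.14, adjusted p = 0.0293).

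The other 9 genes of eIF3 were not called, and 5 of them had log2 fold changes above 0. Eif3d, a subunit with a cap-binding activity of its own, came closest at 0.67 (SE 0.20, adjusted p = 0.0523), with KO replicate 1 inside the WT range. Eif3b, a scaffold subunit, had 0.44 (SE 0.15, adjusted p = 0.0681) without overlap of the groups. At the other end were Eif3a, the largest subunit, at -0.47 (SE 0.22, adjusted p = 0.159) and Eif3e at -0.27 (SE 0.27, adjusted p = 0.49). Subunits of the same complex thus had log2 fold changes between -0.47 and 0.92.

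Of the exchange factor eIF2B, the catalytic subunit gene Eif2b5 (ENSMUSG00000003235, GRCm38 chromosome 16, 20498817 to 20509323, plus strand) stood at 83.3, 57.7, 59.9 and 64.2 in WT and 83.5, 98.7, 129 and 109.6 in KO. KO was higher without overlap, but KO replicate 1 and WT replicate 1 were nearly equal (log2 fold change 0.66, SE 0.17, adjusted p = 0.037). Eif2b4 (ENSMUSG00000029145, GRCm38 chromosome 5, 31187558 to 31193430, minus strand) stood at 20.0, 17.6, 20.1 and 20.3 in WT and 24.4, 31.7, 34.4 and 30.6 in KO, with a narrow WT range below all KO libraries (log2 fold change 0.61, SE 0.14, adjusted p = 0.0268). All 5 log2 fold changes of eIF2B were above 0; those not called were Eif2b2 at 0.43 (SE 0.16, adjusted p = 0.0824), Eif2b1 at 0.26 (SE 0.18, adjusted p = 0.325) and Eif2b3 at 0.09 (SE 0.13, adjusted p = 0.663). Genes of its substrate eIF2 had values below 0 and were not called: Eif2s1, the alpha subunit that stress kinases phosphorylate, at -0.36 (SE 0.21, adjusted p = 0.239) and Eif2s2, the beta subunit, at -0.44 (SE 0.21, adjusted p = 0.162).

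Eif6, a factor that keeps the large ribosomal subunit from joining too early (ENSMUSG00000027613, GRCm38 chromosome 2, 155819832 to 155826925, minus strand), stood at 46.3, 40.3, 52.1 and 56.1 in WT and 69.4, 114, 90.3 and 82.2 in KO. The groups were apart and KO replicate 2 was highest (log2 fold change 0.85, SE 0.17, adjusted p = 0.0224). Eif5a (ENSMUSG00000078812, GRCm38 chromosome 11, 69916714 to 69921958, minus strand) stood at 668, 641, 729 and 829 in WT and 948, 1271, 1076 and 1184 in KO, with all KO above all WT libraries (log2 fold change 0.64, SE 0.16, adjusted p = 0.0329). Both GTPase-linked factors of this group pointed the other way without a call: Eif5, which triggers GTP hydrolysis by eIF2, at -0.63 (SE 0.20, adjusted p = 0.0593) and Eif5b, the subunit-joining GTPase, at -0.56 (SE 0.23, adjusted p = 0.115).

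Of the elongation complex, Eef1g (ENSMUSG00000071644, GRCm38 chromosome 19, 8967041 to 8978479, plus strand) stood at 635, 443, 517 and 532 in WT and 659, 870.5, 1046 and 1022 in KO. KO was higher throughout, with KO replicate 1 just above WT replicate 1 (log2 fold change 0.75, SE 0.19, adjusted p = 0.0344). Eef1d, another subunit of the exchange complex that recharges eEF1A (ENSMUSG00000055762, GRCm38 chromosome 15, 75894205 to 75909556, minus strand), stood at 65.1, 51.6, 57.4 and 59.6 in WT and 72.3, 87.9, 111 and 94.4 in KO, without overlap (log2 fold change 0.63, SE 0.15, adjusted p = 0.0318). Their partner Eef1a1, the factor that is recharged, was not called at -0.17 (SE 0.22, adjusted p = 0.606), nor was Eef1e1, a scaffold protein of aminoacyl-tRNA synthetases, at 0.37 (SE 0.20, adjusted p = 0.205).

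Eif1b, a close copy of Eif1 (ENSMUSG00000006941, GRCm38 chromosome 9, 120492232 to 120495330, plus strand), stood at 65.7, 60.7, 68.8 and 58.1 in WT and 75.2, 93.6, 97.7 and 91.6 in KO, without overlap (log2 fold change 0.49, SE 0.13, adjusted p = 0.0382). Eif1 itself was also higher in every KO library but not called, at 0.22 (SE 0.12, adjusted p = 0.21), and Eif1a and Eif1ax, which both encode eIF1A, had -0.26 and -0.16, neither of them called. Reads of Eif1 and Eif1b, of Eif1a and Eif1ax, and of Eef1a1 and Eif5a with their pseudogenes can be shared, and no source used here says how the authors' counting split them, so these values are uncertain. Of the last group, the release factor genes Etf1 (eRF1) and Gspt1 (eRF3) had -0.33 (SE 0.18, adjusted p = 0.201) and -0.31 (SE 0.14, adjusted p = 0.148), and Pabpc1, the main cytoplasmic poly(A)-binding protein, 0.11 (SE 0.18, adjusted p = 0.699). In all, 13 members had every KO library above every WT library and 1 had every KO library below, where 11.2 and 10.9 percent of all genes did so. KO replicate 1 was the lowest KO library for all 10 called members, and WT replicate 1 was the highest WT library for 6 of them.

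**Figure D3:**
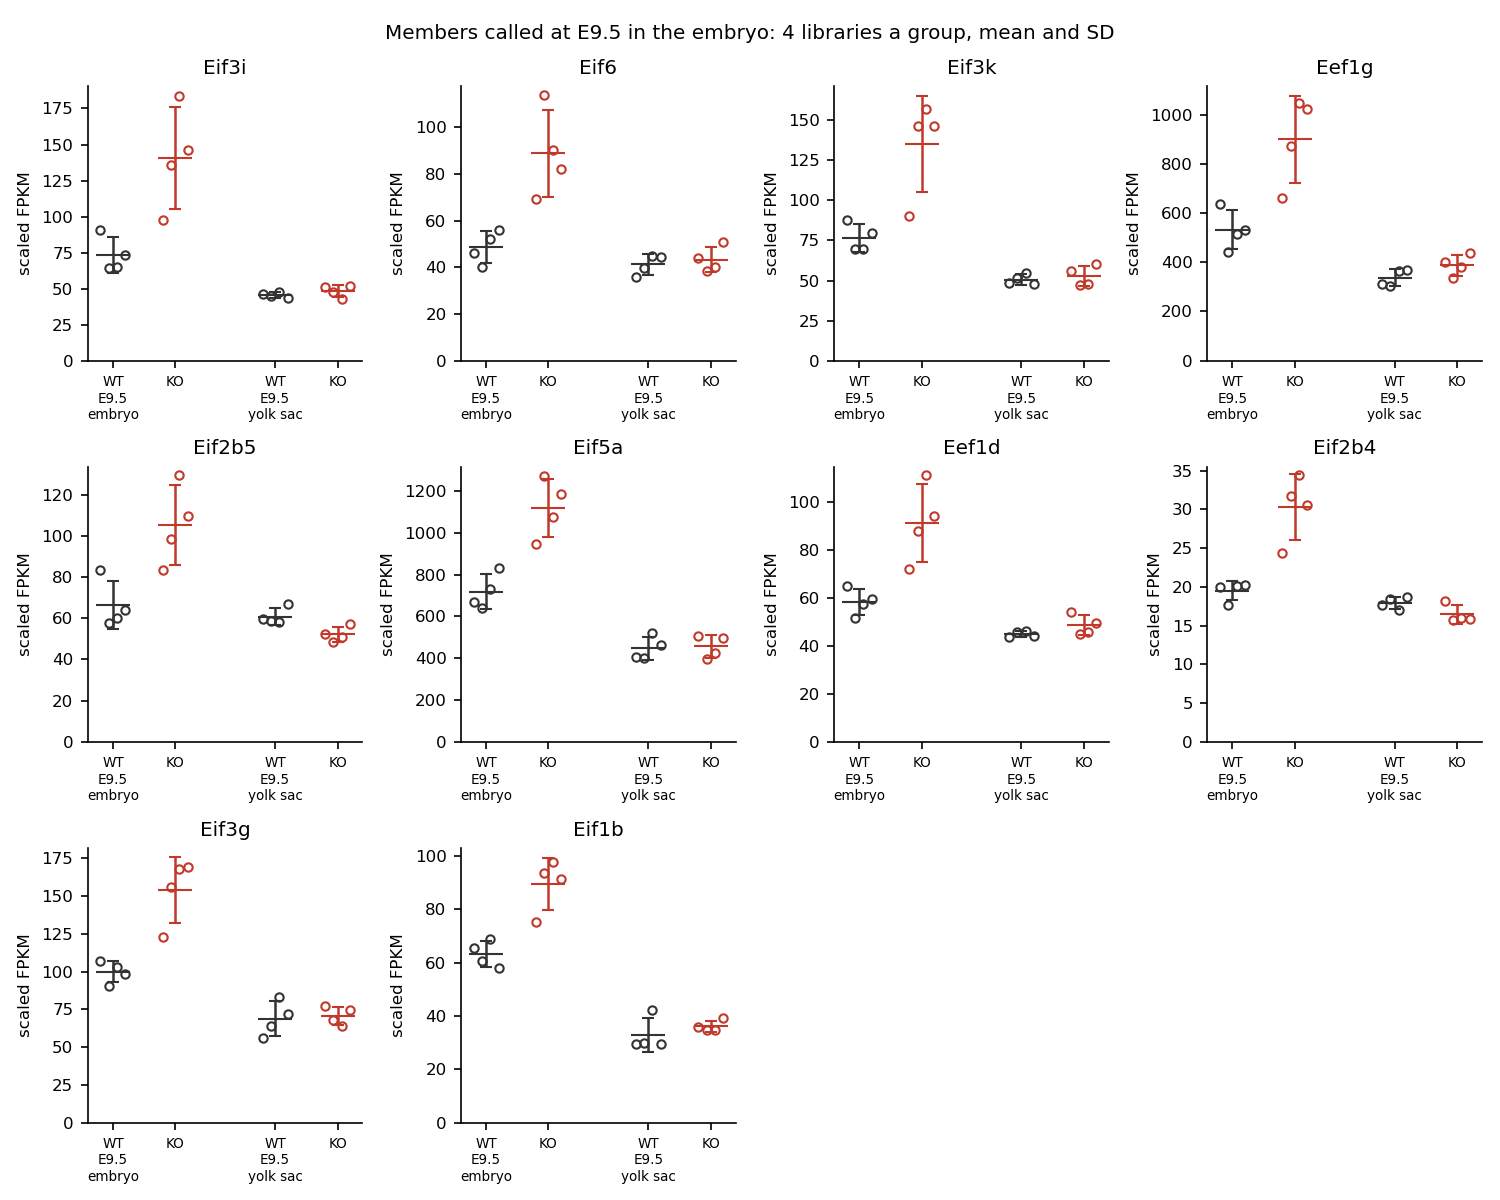
Levels of the 10 members called in E9.5 embryos, in embryo and yolk sac (y axis, scaled FPKM, each table scaled by itself; circles, libraries; dash and bar, mean ± SD, n = 4; black, WT; red, KO). Embryo groups do not overlap for any of the 10, the lowest KO circle is replicate 1 throughout, and yolk sac groups overlap except for Eif2b5, where KO is lower; after rescaling to TPM none of the 10 was called.

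These stretches of coding sequence show how the members with the highest and the lowest log2 fold change in E9.5 embryos differ in base composition. Each line is the middle 30 codons of the longest annotated coding sequence (GENCODE M21, GRCm38), 5′ to 3′ in lower case, with every G or C at the wobble position, the last base of a codon, in capitals. The genes were chosen after their values were seen. The first 3 rose and the last 3 had the lowest values without a call.
Eif3i codons 148 to 177 (chromosome 4, minus strand): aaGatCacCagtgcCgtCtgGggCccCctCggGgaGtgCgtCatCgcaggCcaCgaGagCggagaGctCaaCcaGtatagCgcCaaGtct
Eif6 codons 108 to 137 (chromosome 2, minus strand): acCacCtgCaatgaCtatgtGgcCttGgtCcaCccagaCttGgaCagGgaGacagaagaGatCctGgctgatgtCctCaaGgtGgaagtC
Eif3k codons 95 to 124 (chromosome 7, minus strand): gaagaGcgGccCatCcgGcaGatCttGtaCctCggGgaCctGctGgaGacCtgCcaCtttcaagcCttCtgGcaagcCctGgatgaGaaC
Eif5 codons 200 to 229 (chromosome 12, plus strand): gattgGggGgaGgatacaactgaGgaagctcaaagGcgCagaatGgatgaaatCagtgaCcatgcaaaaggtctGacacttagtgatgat
Eif5b codons 594 to 623 (chromosome 1, plus strand): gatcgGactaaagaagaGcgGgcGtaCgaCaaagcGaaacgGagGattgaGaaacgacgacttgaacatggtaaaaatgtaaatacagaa
Eif3a codons 658 to 687 (chromosome 19, minus strand): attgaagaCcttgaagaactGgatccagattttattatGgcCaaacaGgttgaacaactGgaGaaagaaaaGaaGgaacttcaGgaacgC
In these stretches 25, 22 and 25 of 30 codons ended in G or C in Eif3i, Eif6 and Eif3k, against 10, 10 and 11 in Eif5, Eif5b and Eif3a. Over the whole coding sequence the share was 69.2, 71.4 and 76.6 percent, against 40.1, 42.1 and 39.4 percent.

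Across all members the genotype effect followed GC content in both embryo tables. The GC content of a gene's annotated transcripts and its log2 fold change had a Spearman correlation of 0.851 over the 43 members at E8.5, 0.797 in E9.5 embryos and 0.261 in yolk sacs. Over all genes tested the values were 0.627, 0.504 and 0.0969. The share of codons ending in G or C, known for 42 of the 43, gave 0.720, 0.811 and 0.370. These are descriptions across genes, which share their libraries and are not independent replicates. GC content ran from 37.7 percent in Eif3e to 56.9 percent in Eif3g, and gene length went with it in part: its Spearman correlation with the E9.5 embryo effect was -0.569 over the members and -0.360 over all genes.

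All 10 called members were among the 21 with a GC content above the members' median, between 50.5 and 56.9 percent, and 20 of these 21 had a log2 fold change above 0 in E9.5 embryos. Among all 4170 genes tested in that range of GC content, 12.7 percent were called higher, 1.56 percent lower, and 71.1 percent lay above 0. The exception among the 21 was Eif4g3 at -0.32. Of the 22 members with lower GC content, 7 lay above 0 and none was called by limma, in a range of GC content where 1.83 percent of 5748 genes were called higher and 11.5 percent lower. Median log2 fold changes were 0.49 and -0.21 in the GC-rich and GC-poor members, and 0.23 and -0.24 over all genes of the same ranges. At E8.5 they were 0.28 and -0.32 for the members, and 0.20 and -0.21 for all genes.

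**Figure D4:**
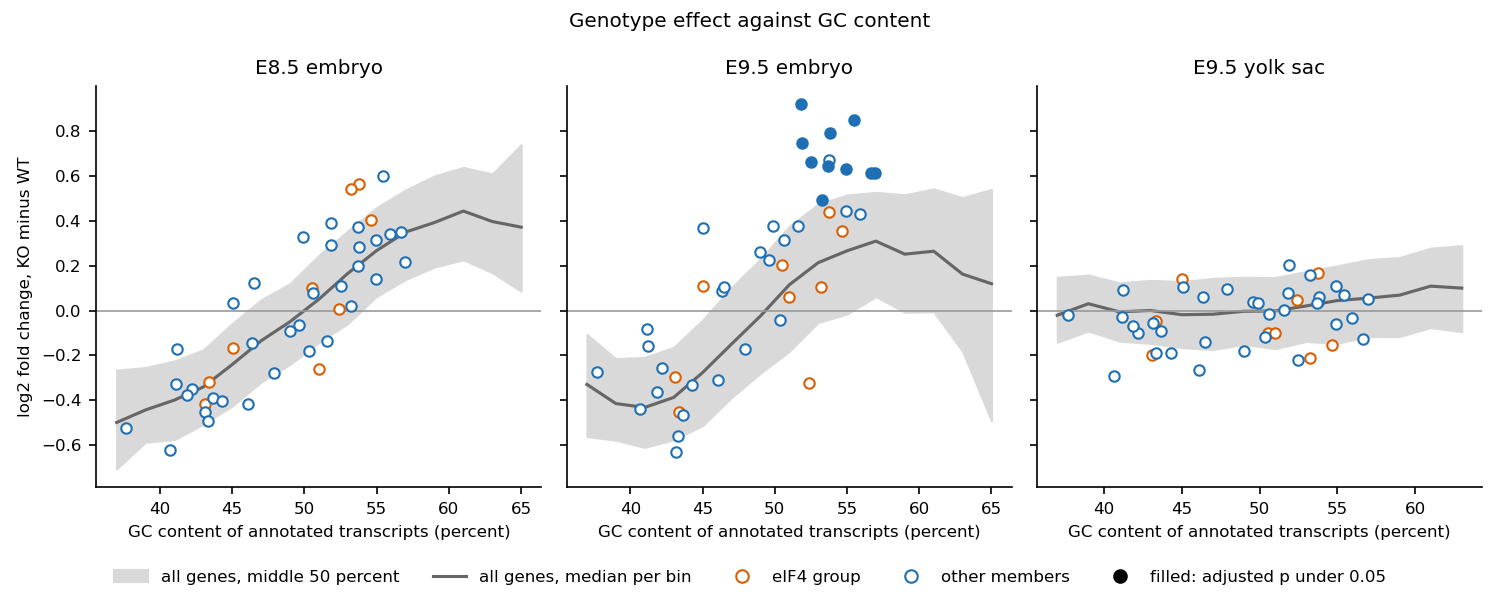
Log2 fold change (KO minus WT, y axis) against the GC content of annotated transcripts (x axis, percent) in 3 panels, 1 per table; circles are the 43 members (orange, eIF4 group; blue, other members; filled, adjusted p under 0.05), the line and band are the median and the middle 50 percent of all genes tested in bins of 2 percentage points. Member values are higher at higher GC content, along the line of all genes, in both embryo tables, with Spearman correlations of 0.851 and 0.797, and the called members lie between 50.5 and 56.9 percent GC and above the line, although none of them is called after rescaling to TPM; in yolk sacs the line is nearly flat.

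The trend was also visible library by library. Taking each library's deviation from the mean of its 8 libraries, GC-rich members minus GC-poor members gave medians of 0.13, -0.78, -0.40 and -0.43 (log2) in WT replicates 1 to 4 of E9.5 embryos and 0.12, 0.57, 0.39 and 0.28 in KO replicates 1 to 4. WT replicate 1 and KO replicate 1 were thus nearly equal in this measure, and the other libraries separated by genotype. At E8.5 the WT libraries ran from -0.51 to -0.04 and the KO libraries from -0.00 to 0.84, with KO replicate 4 far above the others. In yolk sacs the values ran from -0.16 to 0.09 in WT and from 0.02 to 0.11 in KO. Over all genes tested, the Spearman correlation of a library's deviations with GC content ran from -0.594 to 0.0182 in WT and from 0.162 to 0.561 in KO libraries of E9.5 embryos. Whether this trend arose in the embryos or in the making of the libraries was not tested.

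**Figure D5:**
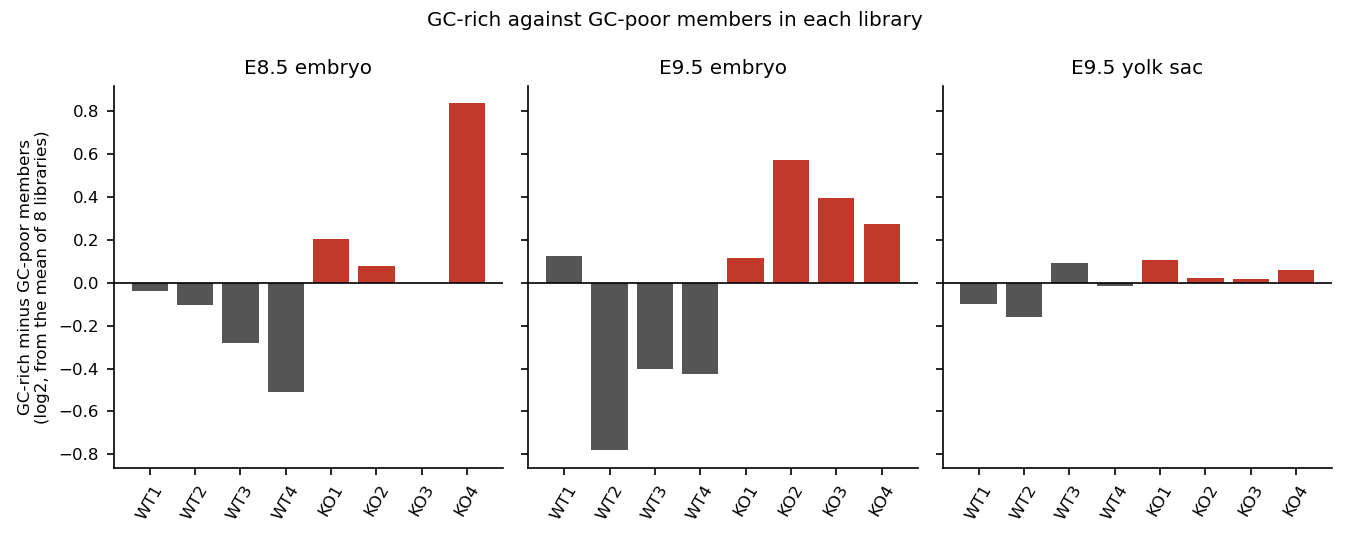
For each library (x axis), the median deviation of the 21 GC-rich members minus that of the 22 GC-poor members (y axis, log2, deviations from the mean of the 8 libraries of a table); grey bars, WT; red bars, KO. In E9.5 embryos WT replicate 1 sits with KO replicate 1, at 0.13 and 0.12, and WT replicates 2 to 4 are below 0 while all KO replicates are above 0; yolk sac bars stay within -0.16 to 0.11.

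With the GC trend of each library removed, an alternative added after the data were seen, 2 of the 43 members rose and 0 fell in E9.5 embryos, where 6.64 percent of all genes were called and 3.75 percent were higher. They were Eif3i at 0.78 (adjusted p = 0.0348) and Eif6 at 0.59 (adjusted p = 0.0431). The members' median was 0.22, close to the 0.20 before, and 31 of 43 log2 fold changes were above 0. By group, the medians were 0.49 for eEF1, 0.30 for eIF2B, 0.28 for eIF3 and 0.23 for the eIF1 group. The eIF4 group had 0.06 and eIF2 had -0.01. Medians of eIF5 and eIF6 and of termination and poly(A) binding are not given here. Before the removal those were 0.04 and -0.31. Members that had been lowest moved towards 0: Eif5 to -0.28 (adjusted p = 0.231), Eif5b to -0.21 (adjusted p = 0.401) and Eif4g2 to -0.11 (adjusted p = 0.433). Eif4g3, which is GC-rich and was low, moved away from 0 to -0.49 (adjusted p = 0.0851). With gene length and GC trends removed together, Eif3i alone was called, at 0.70 (adjusted p = 0.0341).

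At E8.5 none of the 43 members was called by limma, where 0.957 percent of all 13058 genes were, 0.528 percent as higher and 0.429 percent as lower. The log2 fold change was above 0 for 22 of 43 members and 50.8 percent of all genes. At an unadjusted p under 0.05 there were 10 members, against 24.8 percent of all genes, and voom on recovered fragments called 0. The count stayed at 0 with any 1 library left out, KO replicate 1 with its low erythroid markers included. The range ran from -0.62 for Eif2s2 to 0.60 for Eif6. Groups did not overlap for 4 members: KO was above WT for Eif4h and below for Eif4g2, Etf1 and Gspt1, where 8.09 and 7.58 percent of all genes had such an order.

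The eIF4 group at E8.5 had a median log2 fold change of 0.01, with 5 of 9 values above 0. Eif4e stood at 163, 176, 134 and 164 in WT and 118, 144, 119 and 98.2 in KO, so 3 of 4 KO libraries lay below all WT libraries (log2 fold change -0.41, SE 0.15, adjusted p = 0.136). Eif4e2 stood at 82.3, 79.9, 71.6 and 69.6 in WT and 77.8, 75.3, 80.0 and 92.3 in KO and Eif4e3 at 3.06, 3.96, 2.36 and 2.63 in WT and 3.30, 2.98, 2.02 and 2.17 in KO, both with overlap. Eif4e made up 66.8 ± 2.2 percent of the family in WT and 58.6 ± 5.7 percent in KO (SD, n = 4), with ranges of 64.4 to 69.4 and 51.0 to 64.8 that overlapped narrowly.

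The scaffold genes at E8.5 again went both ways. Eif4g1 stood at 546, 302, 607 and 532 in WT and 716, 579, 628 and 624 in KO; WT replicate 2 was far below the rest (log2 fold change 0.40, SE 0.21, adjusted p = 0.257). Eif4g2 stood at 1305, 1347, 1265 and 1492 in WT and 1026, 1239, 1151 and 934 in KO, with all KO libraries below all WT libraries (log2 fold change -0.32, SE 0.15, adjusted p = 0.216). Eif4g3 stood at 32.9, 39.4, 50.6 and 41.6 in WT and 53.8, 35.1, 46.0 and 32.0 in KO and overlapped throughout. Eif4h stood at 387, 287, 326 and 344 in WT and 443, 455, 448 and 659 in KO, the only member with all KO libraries above all WT libraries (log2 fold change 0.56, SE 0.17, adjusted p = 0.0928). Its KO replicate 4 was far above the other KO libraries. Eif4b stood at 526, 608, 449.7 and 389.6 in WT and 446, 419.7, 416 and 349.9 in KO, and KO replicate 4 was lowest (log2 fold change -0.26, SE 0.16, adjusted p = 0.341). Eif4ebp2 stood at 81.9, 68.9, 103 and 96.3 in WT and 139, 88.7, 129 and 160.5 in KO; KO replicate 2 lay inside the WT range and the other KO libraries above it (log2 fold change 0.54, SE 0.20, adjusted p = 0.134).

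Outside the eIF4 group, the E8.5 values with the smallest p were those of Eif2s2 at -0.62 (SE 0.19, adjusted p = 0.0976), Eif5 at -0.45 (SE 0.15, adjusted p = 0.117), Gspt1 at -0.41 (SE 0.14, adjusted p = 0.121), Etf1 at -0.40 (SE 0.14, adjusted p = 0.122) and Eif6 at 0.60 (SE 0.21, adjusted p = 0.129). Most members of lower GC content had values below 0, 19 of 22, and most of higher GC content values above 0, 19 of 21. With the GC trend removed the members ran from -0.30 to 0.38, 1 of them passed an unadjusted p under 0.05, and 0 were called, where 0.528 percent of all genes were.

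The E8.5 and E9.5 embryo effects, which share no library, had the same sign for 36 of 43 members, with a Spearman correlation of 0.844. Over the 11595 genes tested in both tables the sign was the same for 8836, with a correlation of 0.651. With the GC trend removed from both tables the members had 32 of 43 and 0.527. A test of the difference between the stages, as an interaction over 16 libraries, called 0 of 43 members, where 0.0517 percent of genes were called; at an unadjusted p under 0.05 it had 1 member against 4.93 percent of all genes, and voom called 0. The members' median difference, E9.5 minus E8.5, was 0.18, beside -0.0015 for all genes, and 34 of 43 differences were above 0. This median depended on the scaling. After quantile normalization it was 0.029, beside 0.00037 for all genes, and after rescaling to TPM -0.050, beside -0.23. The largest difference upwards was that of Eif2b5 at 0.55 (SE 0.28, adjusted p = 0.903) and the largest downwards that of Eif4ebp2 at -0.44 (SE 0.26, adjusted p = 0.903).

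In E9.5 yolk sacs none of the 43 members was called by limma, where 2.85 percent of all 12010 genes were, 1.22 percent as higher and 1.63 percent as lower. Of the 43 log2 fold changes 19 were above 0, against 52.2 percent of all genes. At an unadjusted p under 0.05 there were 6 members against 19.2 percent of all genes, voom called 0, and the count was 0 with any 1 library left out, KO replicates 1 and 2 with their trophoblast markers included. Replicate numbers were taken to pair the yolk sac libraries, from correlations in the data, but the main fit does not use these pairs. With the number as a block 638 genes in place of 342 were called, again with 0 members. Effects were small, from -0.29 to 0.20. All KO libraries lay below all WT libraries for Eif4e, Eif2s2, Eif2b5, Eif5b and Gspt1, and for no member above, where 6.74 and 5.77 percent of all genes had such an order.

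Of these 5, Eif2s2 stood at 41.6, 47.3, 42.0 and 45.6 in WT and 35.9, 35.9, 35.0 and 37.1 in KO, a narrow KO range below every WT library (log2 fold change -0.29, SE 0.07, adjusted p = 0.0663). Gspt1 stood at 59.8, 60.3, 53.0 and 56.2 in WT and 48.0, 47.1, 48.6 and 46.6 in KO, with the KO libraries equally close to each other (log2 fold change -0.26, SE 0.07, adjusted p = 0.0819). Eif4e stood at 37.5, 38.9, 33.2 and 37.3 in WT and 31.8, 31.6, 31.0 and 33.1 in KO, where KO replicate 4 nearly reached WT replicate 3 (log2 fold change -0.20, SE 0.07, adjusted p = 0.185). Eif5b had -0.19 (SE 0.07, adjusted p = 0.203) and Eif2b5 -0.22 (SE 0.08, adjusted p = 0.19).

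The other eIF4 group genes overlapped in yolk sacs, with a group median of -0.10. Eif4e2 stood at 19.3, 18.6, 22.8 and 20.6 in WT and 17.6, 17.0, 20.2 and 21.0 in KO. Eif4e3 stood at 1.41, 1.19, 1.66 and 1.55 in WT and 0.809, 2.08, 1.98 and 2.01 in KO, so that 3 KO libraries were above all WT libraries and KO replicate 1 was the lowest of all. Eif4e made up 62.8 ± 3.7 percent of the family in WT and 60.8 ± 2.5 percent in KO (SD, n = 4), a smaller gap than its spread. Eif4g1 stood at 187, 177, 169.8 and 176 in WT and 163, 173, 161 and 141 in KO, Eif4g2 at 136, 132, 119 and 138 in WT and 129, 124, 124 and 130.3 in KO, and Eif4g3 at 9.94, 7.96, 7.94 and 9.14 in WT and 9.69, 10.99, 8.45 and 7.26 in KO. All 3 scaffold genes had adjusted p of at least 0.367. Eif4b stood at 113, 126, 119 and 123 in WT and 114, 114, 108 and 113 in KO, mostly lower in KO (log2 fold change -0.10, SE 0.07, adjusted p = 0.499). Eif4h stood at 58.0, 59.2, 83.2 and 79.0 in WT and 75.8, 73.6, 77.6 and 83.4 in KO, with WT replicates 1 and 2 below the rest (log2 fold change 0.17, SE 0.13, adjusted p = 0.532). Eif4ebp2 stood at 52.6, 40.6, 56.6 and 53.7 in WT and 49.9, 44.3, 40.2 and 40.3 in KO, and WT replicate 2 fell among the low KO libraries (log2 fold change -0.21, SE 0.12, adjusted p = 0.375).

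The genotype effect of 2 members differed between the tissues at E9.5, with lower values in yolk sacs. The interaction over 16 libraries called 2.23 percent of all 10511 genes, 0.828 percent with a higher and 1.4 percent with a lower effect in yolk sacs. At an unadjusted p under 0.05 there were 14 of 43 members, against 25.8 percent of all genes. Both belong to eIF2B. Eif2b4 had an effect of 0.61 in embryos and -0.13 in yolk sacs, a difference (yolk sac minus embryo) of -0.74 (SE 0.15, adjusted p = 0.0265). In yolk sacs it stood at 17.6, 18.5, 17.0 and 18.7 in WT and 18.2, 15.7, 15.98 and 15.9 in KO, with overlap. Eif2b5 had 0.66 in embryos and -0.22 in yolk sacs, a difference of -0.88 (SE 0.19, adjusted p = 0.0338). Its yolk sac levels were 59.4, 58.8, 58.2 and 67.0 in WT and 52.5, 48.3, 50.8 and 57.2 in KO, lower in every KO library than in every WT library. Of the other members called in embryos, the next lowest adjusted p were those of Eif3i at -0.84 (SE 0.22, adjusted p = 0.0557) and Eif6 at -0.78 (SE 0.21, adjusted p = 0.058). Voom on recovered fragments called 4 members, these 2 with Eif3i and Eif6.

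The tissue calls too depended on libraries. Leaving out embryo WT replicate 1 gave 13 called members, 5 with a higher and 8 with a lower effect in yolk sacs. Leaving out embryo KO replicate 1 gave 12, all with a lower effect. Without embryo WT replicate 2 or 3, embryo KO replicate 3, yolk sac WT replicate 2 or 4 or yolk sac KO replicate 2 the count was 0. Eif2b4 kept its call in 10 of 16 such runs with adjusted p up to 0.0672, and Eif2b5 in 5 of 16 with adjusted p up to 0.0776. With the GC trend removed, where 1.41 percent of all genes were called, Eif2b5 alone was called, at -0.71 (adjusted p = 0.0379). Rescaling to TPM put the median of all genes at 0.29, from -0.01, and left neither called, with Eif2b4 at -0.44 (adjusted p = 0.227) and Eif2b5 at -0.58 (adjusted p = 0.136). With the replicate numbers as blocks, 0 members and 45 of all genes were called. The main fit treated embryo and yolk sac libraries as independent, although an embryo and a sac of 1 conceptus may both have been sequenced.

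Further genes of translation were counted for comparison. Of 22 other translation factors, 21 passed the filter, and in E9.5 embryos 1 rose and 1 fell, where 7.35 and 6.26 percent of all genes did. Eif4ebp1, the second inhibitor that holds eIF4E, stood at 30.5, 28.3, 34.4 and 41.5 in WT and 64.7, 73.6, 75.4 and 81.6 in KO, without overlap and higher in KO (log2 fold change 1.13, SE 0.15, adjusted p = 0.00626). It had 0.61 at E8.5 (adjusted p = 0.0862), also without overlap of the groups, and 0.08 in yolk sacs, and its effect differed between the tissues (-1.05, adjusted p = 0.0265). The embryo call of Eif4ebp1 held with any 1 library left out (adjusted p up to 0.0304) and was lost without the 3 libraries low in T (1.08, adjusted p = 0.0627). Its tissue difference was lost in 4 of 16 runs with 1 library left out, those without embryo WT replicate 2 or 3, yolk sac WT replicate 4 or yolk sac KO replicate 2, and after rescaling to TPM (-0.75, adjusted p = 0.0578). Abce1, the ATPase that splits ribosomes after termination, stood at 30.3, 50.3, 51.5 and 52.5 in WT and 24.4, 25.5, 26.7 and 32.6 in KO, where WT replicate 1 lay between KO replicates 3 and 4 and the other WT libraries above (log2 fold change -0.72, SE 0.19, adjusted p = 0.0385). The Abce1 call held in 1 of 8 runs with 1 library left out, that without WT replicate 1 (-0.91, adjusted p = 0.0122); without any other library the adjusted p was 0.0596 to 0.109. It was also lost with the GC trend removed (-0.32, adjusted p = 0.167), with the length trend removed (-0.62, adjusted p = 0.0724), without the filter (adjusted p = 0.101) and without the 3 libraries low in T (-0.89, adjusted p = 0.0627). At E8.5 and in yolk sacs Abce1 had -0.85 and -0.40 without a call. Eefsec, the selenocysteine elongation factor, named after its values were seen, was the other gene of the list with a tissue difference, at -0.90 (adjusted p = 0.0385). That call of Eefsec held in 5 of 16 runs with 1 library left out, those without embryo WT replicate 1, embryo KO replicate 1 or 4, yolk sac WT replicate 1 or yolk sac KO replicate 4, and was lost with the GC trend removed (-0.67, adjusted p = 0.105) and after rescaling to TPM (-0.61, adjusted p = 0.145). Of 17 regulators of translation factors (eIF2 kinases, the mTOR axis and related genes) 0 were called by limma in any table. Over all genes 0.957, 13.6 and 2.85 percent were called at E8.5, in E9.5 embryos and in yolk sacs. At an unadjusted p under 0.05 there were 3, 2 and 3 regulators, against 24.8, 35.6 and 19.2 percent of all genes. The regulators' medians were 0.02, -0.05 and -0.07.

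Of the 43 members, 8 are known for a terminal oligopyrimidine (TOP) tract, a run of pyrimidines directly at the cap through which growth signals control translation: Eef1a1, Eef1d, Eef1g, Eif3e, Eif3f, Eif3h, Eif4b and Pabpc1. This list is from general knowledge of the tracts. In E9.5 embryos 2 of these 8 rose, Eef1g and Eef1d, beside 10 of all 43 members and 7.35 percent of all genes. Of the 8 log2 fold changes 6 were above 0, against 50.7 percent of all genes. Their median was 0.24 beside 0.20 for all members. At E8.5 and in yolk sacs 0 of the 8 were called, where 0.957 and 2.85 percent of all genes were. The medians of the 8 there were -0.01 and 0.02. The RefSeq promoter table (GRCm38.p6) held 31 of the 43 members and 3 of the 8 TOP genes. Their annotated starts are shown because the nucleotide on which Cmtr2 acts lies directly after the first transcribed base; each line gives 30 bases around the start, with the pyrimidine run that begins with C at the start in capitals.
Eif3f (chr7:108934400-108934429, plus strand): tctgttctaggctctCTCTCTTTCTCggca
Eif4b (chr15:102073758-102073787, plus strand): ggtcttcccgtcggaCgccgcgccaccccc
Eef1a1 (chr9:78481710-78481739, minus strand): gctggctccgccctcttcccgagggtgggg
Eif3f had a run of 11 pyrimidines, Eif4b a single C, and Eef1a1 none by this definition. A C followed by 4 pyrimidines at the start, searched on the strand of the gene alone, was present in 2.51 percent of the 32851 promoters of the table and in 1 of the 31 members. Annotated starts need not be the starts used in these tissues. Eif3f had log2 fold changes of 0.33, 0.38 and 0.03 in the 3 tables in the order given above, none of them called.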

How the data were processed

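RNA from 24 libraries, 4 WT and 4 KO in each of 3 tables, was extracted with TRIzol and a column kit, treated with DNase and made into NEBNext Ultra libraries, per the labels' protocols. The authors deposited FPKM values for 54532 gene IDs per table. The submitters' processing notes name DESeq2, GRCm38 and mm10. No source used here names the aligner, counter, annotation or strandedness. With gene lengths from GENCODE M21, which annotates 54495 of the IDs, 96.2 to 98.2 percent of low values were whole fragments (tolerance 0.02), where the E8.5 table was divided by the mean transcript length and the E9.5 tables by the length of all exons joined, and each library held 15555420 to 23376195 fragments.

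Genes with FPKM of at least 1 in 4 of 8 libraries were kept. FPKM were scaled by median-of-ratios within a table and tested with limma 3.58.1 (R 4.3.3; empirical Bayes with a mean-variance trend) on log2(FPKM + 0.5), so the change of low genes is understated. Log2 fold changes are KO minus WT, and calls have a Benjamini-Hochberg adjusted p under 0.05 over all genes tested. Differences between stages and between tissues were interactions in joint fits of 16 libraries. The fits were tested on simulated data. Python 3.11.15 with pandas 2.3.3, numpy 2.4.6, scipy 1.17.1 and matplotlib 3.10.9 did the rest. GC content is over all annotated transcripts of a gene.

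The members, lists and tests were chosen with earlier results of these data known. Every member could be named. Library values were given for the 9 eIF4 genes and for called members, and of the other lists the called genes were named. Sequences and further genes were chosen after their values were seen. In yolk sacs, deviations of same-numbered WT and KO libraries correlated at 0.362, 0.304, 0.387 and 0.208, so the numbers were taken to pair these libraries. That pairing comes from the data and is not certain, since WT replicate 4 correlated best with KO replicate 3. The main fits leave it out, so the yolk sac p-values given for single members are unpaired. Alternatives were other pseudocounts, filters and scalings, trends with gene length or GC content removed, array weights, replicate blocks, voom on recovered fragments and libraries left out.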

Additional observations from a re-analysis of the deposited data

Results flagged for a closer look

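In 14 of 276 groups of 4 libraries, in 13 genes, 1 library lay far from the other 3, where chance gives about 1 group in 20. In E9.5 embryos WT replicate 1 was highest for Eif4g1, the main scaffold, at 218 FPKM (others 100.4 to 119), and for Eif2b1, a regulatory subunit of eIF2B, at 35.6 (24.2 to 25.4), and lowest for Gspt1 (eRF3) at 44.7 (60.3 to 62.5) and Abce1, which is no member, at 30.3 (50.3 to 52.5). WT replicate 2 was lowest for Eif2b4 at 17.6 (20.0 to 20.3). Among the KO embryos of E9.5, replicate 1 was lowest for Eif3k at 90.5 (146 to 157), replicate 4 was lowest for Eif4ebp2 at 63.1 (80.4 to 82.1), and replicate 3 was highest for Pabpc1 at 441 (285 to 308). At E8.5, KO replicate 4 was highest for Eif4h at 659 (443 to 455).

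In yolk sacs, KO replicate 1 was lowest for Eif4e3 at 0.809 FPKM (1.98 to 2.08) and highest for Eif2b4 at 18.2 (15.7 to 15.98). WT replicate 3 was highest for Eif1b at 42.3 (29.4 to 29.995) and lowest for Etf1 (eRF1) at 74.3 (85.0 to 86.3), and WT replicate 4 was highest for Eif2b5 at 67.0 (58.2 to 59.4).

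The KO effect differed between yolk sac and embryo at E9.5 for Eif2b4, by -0.74 (SE 0.15, adjusted p = 0.0265), and for Eif2b5, by -0.88 (SE 0.19, adjusted p = 0.0338), both on the log2 scale in limma's interaction over 16 libraries. Every KO library was above every WT library for both genes in embryos, and every KO library below for Eif2b5 in yolk sacs. Beyond the members it differed for Eif4ebp1, by -1.05 (adjusted p = 0.0265), and Eefsec, by -0.90 (adjusted p = 0.0385), in the same interaction.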

How the results depend on the processing

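In E9.5 embryos, 10 members were called. The count was 0 without the filter, with a replicate block (146 genes called) and with replicates 1 and 2 alone (median 0.011). It was also 0 with replicates 3 and 4 alone and without the 3 libraries low in T (median 0.29). Rescaling to TPM gave 12 lower (median -0.15), and quantile normalization 3 higher and 4 lower (median 0.059). With the length trend removed 5 were higher. Quantile normalization with the length trend removed gave 1 lower (median -0.053, with Eif1b at -0.0044). With the GC trend removed 2 were higher, and with both trends removed 1 was (median 0.12). Array weights gave 15 higher and 8 lower, 23 in all. With 1 library left out the count ran from 0 to 21.

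At E8.5, 0 became 2 with the replicate block (Eif4ebp2 higher, Eif2s2 lower) and 4 with a term that sets replicates 1 and 2 apart from 3 and 4. In yolk sacs, 0 became 2 with array weights and 2 with that term (Gspt1 and Eif2s2 lower). For the tissue difference, 2 became 1 without the filter, 4 at a filter of FPKM 5, 1 higher after TPM (Eif4g2), 1 after quantile normalization and 0 with the length trend also removed. It became 13 with array weights (2 higher, 11 lower), 0 with the replicate block, 4 by voom, 1 with the GC trend removed and 0 with both trends removed. Without the 3 libraries it was 7 (2 higher, 5 lower), and with 1 library left out 0 to 13.

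The Cmtr2 level ran from 10.6 to 12.6 percent at E8.5, 13.9 to 16.5 percent in E9.5 embryos and 4.66 to 6.64 percent in yolk sacs with 1 library left out. The causes of these shifts were not tested.

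Over all genes, calls in E9.5 embryos numbered 1637, and 3245 after TPM, 3498 with array weights, 935 with the length trend removed, 862 with quantile normalization and the length trend removed, 798 with the GC trend removed, 608 with both trends removed, 146 with the block, 112 without the filter, and 86 to 2692 with 1 library left out. At E8.5, 125 became 1652 with the replicate term, 1261 with the block, 269 and 263 with the length trend removed with and without quantile normalization, 69 with the GC trend removed, 25 without the filter and 29 to 75 with 1 library left out. In yolk sacs, 342 became 782 with the term, 659 with array weights, 638 with the block, 522 with both trends removed, 146 without the filter and 77 to 280 with 1 library left out. For the tissue difference, 234 became 1728 with array weights, 969 after TPM, 454 with the term, 381 by voom, 148 with the GC trend removed, 107 without the filter, 45 with the block and 6 to 1404 with 1 library left out.

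Outside yolk sacs the replicate numbers were not taken to pair libraries, since not every same-number correlation was above 0.1: they were 0.310, 0.382, 0.332 and 0.0651 at E8.5 and -0.0236, -0.0612, -0.207 and 0.154 in E9.5 embryos. Libraries correlated best with their own number for numbers 1, 2 and 3 at E8.5 and for number 4 in E9.5 embryos, a hint from the data and not from the design. In yolk sacs too this held for numbers 1, 2 and 3 and not for number 4. With the block, Abce1 had an adjusted p of 0.0668 in E9.5 embryos, and the tissue differences of Eif4ebp1 and Eefsec 0.0516 and 0.0564. Over single genes, 6315 settings kept the side of the threshold, 230 lost and 119 gained a call, and 1 was counted as reversed. Values without a call could change sign and still be counted as kept. Eefsec at E8.5, for example, had 0.13 in the main fit and -0.19 with the GC trend removed.

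Depth gave every member at least 0.809 FPKM in each library. Litter, sex and somite stage were not modelled, and reads shared with paralogues and pseudogenes remain uncertain.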

Other observations

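Gene pairs that encode near-identical factors divided their summed level differently in the tissues. Such shares are taken within libraries and are free of the scaling factor between them, but not of a library's trend with GC content. Of the summed level of Eif1a and Eif1ax, which both encode the scanning factor eIF1A, Eif1a made up 83.3 ± 1.3 percent in WT yolk sacs and 55.4 ± 1.8 percent in WT embryos at E9.5 (SD, n = 4), with ranges of 82.0 to 84.7 and 53.8 to 58.0. In KO libraries the shares were 81.2 ± 3.1 and 53.7 ± 5.0 percent. Each KO range overlapped the WT range of its tissue. The tissue difference in the WT was not tested.

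Eif1b made up 28.3 ± 1.7 percent of the summed level of Eif1 and Eif1b in WT and 32.2 ± 1.3 percent in KO embryos of E9.5 (SD, n = 4), with ranges of 25.8 to 29.4 and 30.6 to 33.7 that did not meet. In yolk sacs the ranges, 22.2 to 25.5 in WT and 24.1 to 26.9 in KO, overlapped, as they did at E8.5. Among the scaffold genes, Eif4g2 made up 71.8 ± 6.0 percent in WT and 61.4 ± 4.4 percent in KO embryos of E8.5, with overlap. In yolk sacs Eif4g1 was the larger share in both genotypes, at 55.9 ± 1.1 and 53.9 ± 2.4 percent. Reads shared within these pairs could shift the shares. The genes that share a sum also differ in GC content, at 49.6 percent in Eif1 and 53.2 in Eif1b. It was 54.6, 43.4 and 52.4 percent in Eif4g1, Eif4g2 and Eif4g3, and 43.1, 50.5 and 45.0 percent in Eif4e, Eif4e2 and Eif4e3. The part of the GC trend in the shares was not tested.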
